A study of Mus musculus with 17 samples.

Results

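Plasminogen activation and coagulation were followed through 8 genes, Plau, Plat, Plaur, Serpine2, F3, Tfpi, F10 and F13a1, which were given as a list and found by their symbols in a table of 55421 genes. Each symbol matched 1 row. The cells were cultures labelled as lung fibroblasts, passaged once, from Ephb4f/f;Col1a2-CreERT2 mice. In these mice the Cre recombinase is driven by Col1a2 and becomes active with 4-hydroxytamoxifen. Ephb4 CKO mice received 4-hydroxytamoxifen at 1 mg a day for 5 days from 4 weeks of age, and Ephb4 control mice carried the same floxed allele and the same Cre but received corn oil. At 6 weeks of age the mice were challenged with bleomycin, a drug that injures the lung, given intratracheally at 1.2 U/kg, or PBS as its vehicle. The lung cells were isolated on day 14. Total RNA-Seq was performed on 17 libraries, 1 per mouse. Of the control animals 4 had PBS and 4 bleomycin, and of the CKO animals 5 had PBS and 4 bleomycin. Each replicate was a separate mouse, and both sexes were present in each group. The mouse names carry a number series, 11 or 12. All control bleomycin mice were of series 12, and each other group held both. A difference of that group from the others therefore cannot be fully told apart from the series.

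Plasmin dissolves fibrin and other matrix proteins, and it is made from plasminogen by the urokinase-type activator (Plau) and the tissue-type activator (Plat). Urokinase acts at the cell surface on its receptor (Plaur), and serpins such as Serpine2 block the activators and thrombin. Tissue factor (F3) starts coagulation with factor VII and activates factor X (F10), a step that Tfpi inhibits, and the A subunit of factor XIII (F13a1) cross-links the fibrin that results. Deposition and clearance of fibrin are known features of the injured lung.

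Library totals lay between 66540022 and 120554468 counts, with a median of 93075927. CPM is the count scaled to a common library total, and the values given here are after TMM normalization. Before TMM normalization CPM was above 10 in at least 2 libraries for 10481 genes, and all 8 members were among them. The lowest count of any member in any library was 28. Macrophage markers were abundant in cultures labelled as primary fibroblasts: all 18 listed markers passed the filter, and their summed CPM was between 1536 and 21195 in Ephb4 control mice given bleomycin and between 11202 and 47859 in the other groups. Of 16 fibroblast markers, 14 passed, with a summed CPM of 7051 to 14186 in Ephb4 control mice given bleomycin and 48.3 to 8493 in the other groups, and Postn was at 0 in 1 library. Of 7 platelet and megakaryocyte markers only Pf4 and Ppbp passed, and none of 7 lymphocyte markers passed. Since these were bulk samples, fewer cells of a type and less RNA per cell cannot be told apart. The expression of sex-linked genes went against the recorded sex in 3 libraries, all after bleomycin (mouse 2 of the control group, mice 1 and 2 of the CKO group). Ephb4 itself, the targeted gene, averaged 38.5 ± 21.3 CPM (SD, n = 4) in the bleomycin group of control animals and 9.64 ± 3.70 CPM (SD, n = 4) in that of CKO animals, with values of 65.1, 13.1, 35.3 and 40.5 against 14.0, 9.53, 10.1 and 4.93. After PBS the means were 16.0 ± 15.3 CPM (control, n = 4) and 9.66 ± 8.09 CPM (CKO, n = 5). Both of these ranges overlapped, with an adjusted p of 0.22 after bleomycin and 1.00 after PBS (edgeR).

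Plau, Plaur and F3 had the highest levels of the 8 genes per length, and Plat, Serpine2 and F13a1 the lowest. On the scale of CPM per kilobase of exon, the median over 17 libraries was 53.0 for Plau, 48.6 for Plaur, 38.3 for F3 and 21.6 for F10. It was 4.62 for Tfpi, 2.21 for F13a1, 2.06 for Serpine2 and 1.88 for Plat. The step from F10 to Tfpi held in 16 of 17 libraries. Neighbours elsewhere in this order changed places often: Plau was above Plaur in 6 of 17 libraries, Plaur above F3 in 9, F3 above F10 in 10, Tfpi above F13a1 in 12, F13a1 above Serpine2 in 10 and Serpine2 above Plat in 10. The genes also differed in how far they varied between mice. Tfpi spanned a 3.98-fold range over the libraries, Plaur 9.16-fold and Plau 10.3-fold, whereas F10 spanned 54.9-fold, F13a1 66.0-fold, Serpine2 78.1-fold, F3 142.6-fold and Plat 461-fold.

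**Figure D1:**
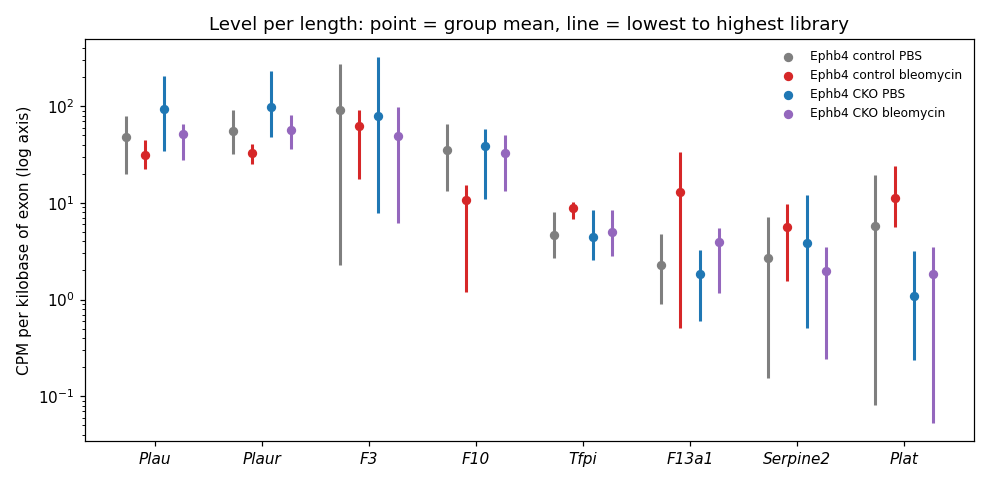
Level of the 8 genes in CPM per kilobase of exon on a log axis, ordered by the median over 17 libraries, with 1 colour per group. Points are group means and lines run from the lowest to the highest library (4 or 5 mice per group); Plau, Plaur and F3 have the 3 highest means in every group, followed by F10 in all but control bleomycin mice, where F13a1 (12.89) and Plat (11.35) lie above it (10.59).

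Promoter sequence was available in RefSeq (GRCm38.p6) for 6 of the 8 genes, all but Plau and Plat, as windows from 250 bases before to 50 bases after the start. Those of Plaur, F3 and F10 are shown because these genes head the surface receptor, the trigger and the protease of the pathway, and their levels in the libraries followed different patterns. They are given in the direction of transcription, with capitals at matches, on either strand, to the AP-1 motif TGANTCA, the TEAD motif GGAATG and the ETS motif GAGGAA.
Plaur, chr7:24462233-24462532, forward strand: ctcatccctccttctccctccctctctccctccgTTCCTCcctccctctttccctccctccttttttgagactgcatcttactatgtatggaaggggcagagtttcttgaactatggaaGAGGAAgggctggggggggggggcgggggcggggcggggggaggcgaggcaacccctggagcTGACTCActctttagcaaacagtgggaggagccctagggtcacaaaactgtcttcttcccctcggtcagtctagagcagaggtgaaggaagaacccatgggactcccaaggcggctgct
F3, chr3:121723287-121723586, forward strand: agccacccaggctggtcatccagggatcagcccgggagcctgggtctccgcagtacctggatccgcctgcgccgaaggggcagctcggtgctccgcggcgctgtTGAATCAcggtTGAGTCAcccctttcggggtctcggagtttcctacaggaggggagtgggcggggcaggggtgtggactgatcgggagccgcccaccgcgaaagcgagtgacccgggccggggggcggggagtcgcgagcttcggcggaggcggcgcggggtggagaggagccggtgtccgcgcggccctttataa
F10, chr8:13037058-13037357, forward strand: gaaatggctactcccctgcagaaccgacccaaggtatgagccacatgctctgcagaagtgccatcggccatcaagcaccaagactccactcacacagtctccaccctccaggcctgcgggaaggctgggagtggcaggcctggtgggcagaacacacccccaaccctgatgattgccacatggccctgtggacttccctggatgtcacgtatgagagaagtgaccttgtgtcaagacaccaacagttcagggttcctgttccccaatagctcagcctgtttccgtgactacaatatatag
Plaur held 1 AP-1 match, at base -69 from the start, and F3 held 2, at -146 and -135. Of all 32817 promoter windows, 7.81% held this motif, 14.7% the TEAD motif and 28.3% the ETS motif. Plaur also held 2 ETS matches, and neither window held a TEAD match. The F10 window had none of these 3 motifs. It also had no match to GGGCGG (GC box) or TATAAA, which were found in 35.6% and 13.6% of all windows. The windows of Serpine2, Tfpi and F13a1, which are not shown, held no AP-1 match. No match to one of the 5 motifs overlapped a match to another in the 3 windows shown. These matches describe letters in the windows only.

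Plau (ENSMUSG00000021822, chromosome 14, 20836660 to 20843385, forward strand of GRCm38), the urokinase-type activator, was lowest after bleomycin in Ephb4 control mice and highest after PBS in Ephb4 CKO mice. It was 129.3, 84.2, 46.8 and 189.4 CPM in the control PBS mice and 106.6, 76.8, 62.1 and 53.4 CPM in the control bleomycin mice. In CKO mice it was 205.3, 132.5, 80.8, 201.1 and 484.1 CPM after PBS and 156.9, 125.4, 66.1 and 142.0 CPM after bleomycin. The groups overlapped in every comparison, and CKO PBS mouse 5 stood above all other libraries. Relative to control mice, the log2 fold change in CKO mice was 0.97 (SE 0.48) after PBS and 0.71 (SE 0.50) after bleomycin; without CKO PBS mouse 5 the first was 0.46.

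Plaur (ENSMUSG00000046223, chromosome 7, 24462484 to 24475968, forward strand), the urokinase receptor, followed the same order of groups. Control PBS mice had 121.4, 135.2, 83.9 and 241.9 CPM, and control bleomycin mice 106.1, 87.7, 82.0 and 65.4 CPM. CKO PBS mice had 599.4, 131.2, 124.3, 263.6 and 171.4 CPM, and CKO bleomycin mice 159.8, 93.9, 127.2 and 214.9 CPM. The 2 bleomycin groups overlapped through CKO mouse 2, which lay below control mouse 1. The difference between them was a log2 fold change of 0.80 (SE 0.47; edgeR adjusted p = 0.32). After PBS it was 0.83 (SE 0.45), and 0.25 without CKO PBS mouse 1.

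Plat (ENSMUSG00000031538, chromosome 8, 22757727 to 22782844, forward strand), the tissue-type activator, had the opposite pattern to Plau and Plaur. It was 151.7, 47.3, 35.5 and 48.8 CPM in control bleomycin mice and 7.29, 22.0, 15.9 and 0.329 CPM in CKO bleomycin mice. Every control value lay above every CKO value, the single case of separate groups among the 8 genes. In this comparison 23.1% of all genes had separate groups in either direction. Means were 70.8 ± 54.2 and 11.4 ± 9.52 CPM (SD, n = 4 each), a log2 fold change of -2.64 (SE 1.33), which did not pass the threshold (edgeR adjusted p = 0.26; exact permutation p = 0.0286, 2-sided, the smallest that 4 against 4 mice allow). Without control bleomycin mouse 1 the control mean was 43.9 CPM and the log2 fold change -1.96. After PBS, control mice had 9.91, 11.7, 120.6 and 0.501 CPM and CKO mice 5.44, 1.82, 20.02, 1.47 and 4.90 CPM. The log2 fold change there was -2.41 (SE 1.22), -3.40 without CKO PBS mouse 3, and -0.13 without control PBS mouse 3, whose fibroblast score (the mean log2 CPM of the markers that passed) of 7.71 was the highest of the PBS libraries.

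Serpine2 (ENSMUSG00000026249, chromosome 1, 79794197 to 79861180, reverse strand), the serpin protease nexin-1, varied widely within each group. It was 22.5, 5.65, 59.7 and 1.27 CPM in control PBS mice and 80.6, 77.3, 12.97 and 15.3 CPM in control bleomycin mice. CKO mice had 99.3, 17.1, 32.0, 4.18 and 8.32 CPM after PBS and 29.1, 20.9, 13.4 and 1.996 CPM after bleomycin. All groups overlapped. The log2 fold change was 1.06 (SE 1.13) for bleomycin in control mice and -1.51 (SE 1.14) for CKO against control after bleomycin. The first was 2.30 without control PBS mouse 3.

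F3 (ENSMUSG00000028128, chromosome 3, 121723537 to 121735048, forward strand), tissue factor, was set apart by single mice. Control PBS mice had 684.9, 81.6, 145.8 and 5.71 CPM, and CKO PBS mice 55.9, 813.8, 60.1, 52.2 and 19.8 CPM. After bleomycin the values were 231.9, 44.4, 153.8 and 195.1 CPM in control mice and 96.9, 141.6, 246.7 and 15.8 CPM in CKO mice. Groups overlapped throughout, with log2 fold changes from -0.68 to -0.20 in the 4 comparisons and standard errors from 1.17 to 1.24. Leaving out 1 mouse reversed the direction in each of the 4.

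Tfpi (ENSMUSG00000027082, chromosome 2, 84432855 to 84476775, reverse strand), the inhibitor of the tissue factor pathway, was highest in control bleomycin mice, at 36.9, 49.8, 52.3 and 55.7 CPM. It was 19.2, 14.6, 44.3 and 23.6 CPM in control PBS mice, 45.6, 15.4, 17.2, 28.4 and 14.0 CPM in CKO PBS mice and 22.8, 46.4, 15.3 and 25.3 CPM in CKO bleomycin mice. A single mouse in each of the other groups, the highest, reached into the control bleomycin range. For bleomycin in control mice the log2 fold change was 0.94 (SE 0.43; edgeR adjusted p = 0.35), and for CKO against control after bleomycin it was -0.83 (SE 0.43; edgeR adjusted p = 0.27).

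F10 (ENSMUSG00000031444, chromosome 8, 13037308 to 13056676, forward strand), coagulation factor X, was lowest in control bleomycin mice, at 3.26, 41.4, 35.7 and 35.3 CPM. The other groups had 36.5, 113.9, 59.1 and 178.9 CPM (control PBS), 157.5, 29.9, 134.0, 123.2 and 89.4 CPM (CKO PBS) and 49.8, 36.6, 138.6 and 129.8 CPM (CKO bleomycin). Mouse 1 of the control bleomycin group stood apart from the rest of its group, and it also had the lowest macrophage score of the 17 libraries (4.73, the mean log2 CPM of the 18 markers, against 7.52 to 9.61 in the others). The log2 fold change was -1.75 (SE 0.72; edgeR adjusted p = 0.32) for bleomycin in control mice and 1.62 (SE 0.71; edgeR adjusted p = 0.23) for CKO against control after bleomycin. With the macrophage score as a covariate the first was -0.34 and the second -0.078. F10 itself ran closely with that score over the libraries (r = 0.93), and the part of the macrophage markers in these differences was not tested.

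F13a1 (ENSMUSG00000039109, chromosome 13, 36867178 to 37050244, reverse strand), the fibrin cross-linking subunit, had its 3 highest values in control bleomycin mice. That group had 3.43, 226.6, 67.3 and 50.1 CPM, against 9.53, 14.0, 31.9 and 6.03 CPM in control PBS mice. CKO mice had 12.4, 4.07, 22.2, 8.497 and 14.9 CPM after PBS and 26.6, 7.87, 37.3 and 33.9 CPM after bleomycin. Control bleomycin mouse 1 was the lowest of all libraries and mouse 2, a library whose sex-linked genes went against its label, the highest. The log2 fold change for bleomycin in control mice was 2.498 (SE 0.90; edgeR adjusted p = 0.32; exact permutation p = 0.29, 2-sided), 1.39 without mouse 2 and 3.20 without control PBS mouse 3. For CKO against control after bleomycin it was -1.72 (SE 0.87), -0.61 without control bleomycin mouse 2 and -0.22 without the 3 libraries whose sex-linked genes went against the label. Gm49144 and Gm30489 overlap this gene on the other strand; the counting was strand-specific.

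**Figure D2:**
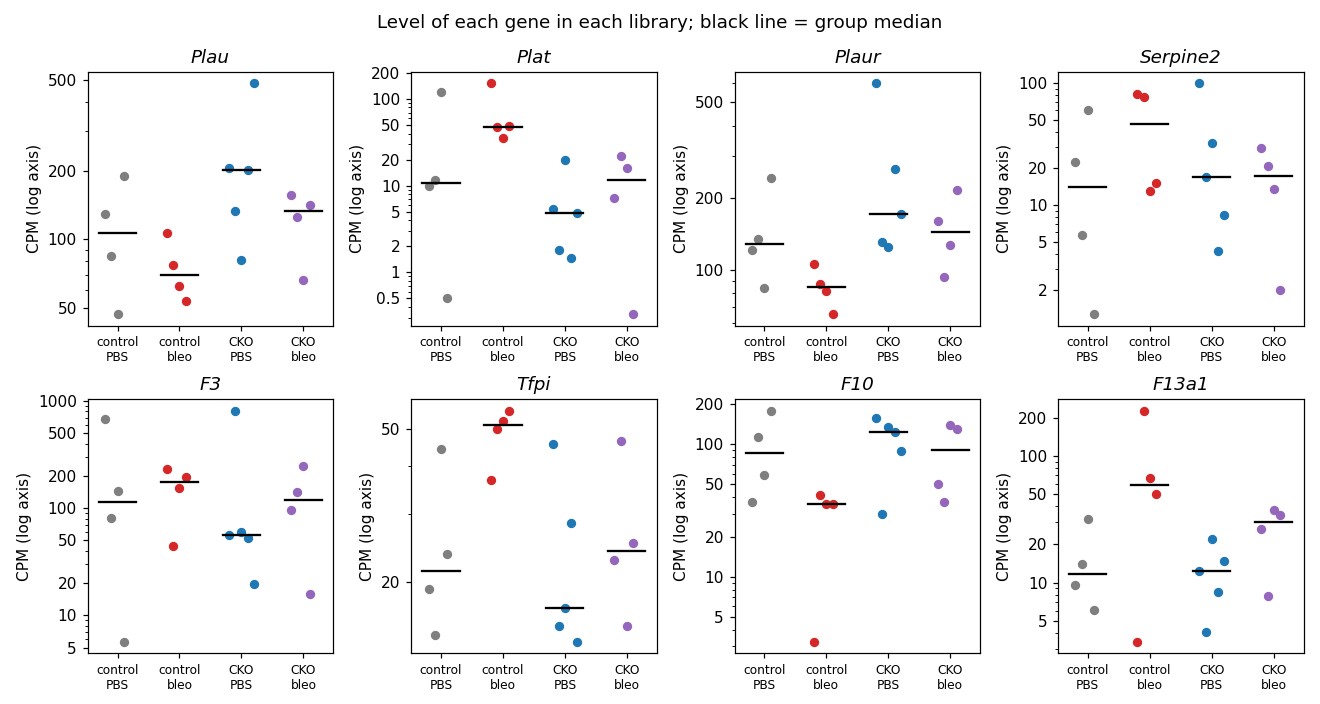
CPM of each gene in each of the 17 libraries on a log axis, by group (bleo, bleomycin); each point is 1 mouse and the black line is the group median. Plat in CKO bleomycin mice lies wholly below control bleomycin mice (0.329 to 22.0 against 35.5 to 151.7 CPM), and all other groups overlap in these comparisons.

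The effect of bleomycin was asked first in Ephb4 control mice. None of the 8 genes passed an adjusted p of 0.05 in edgeR, and neither did any gene of the table (0% of 10481). At an unadjusted p under 0.05, Tfpi and F13a1 were higher and F10 lower, 2 and 1 of 8, where 6.28% of all genes were higher and 7.98% lower. No member had separate groups, against 5.72% of all genes in the higher and 3.20% in the lower direction. The median log2 fold change was 0.19 over the members and -0.06 over all genes tested. DESeq2 and limma voom called 0 members (DESeq2 called 1.60% of all genes), and DESeq2 with 2 blocks of columns as a covariate called F13a1, with 2.26% of all genes called. The columns of the table stand in 2 alphabetical blocks of 8 and 9 libraries, whose origin is not given in the sources used here, and within these blocks the differences of mean log2 CPM were 1.05 and 1.04 for Tfpi, -1.10 and -2.90 for F10 and 2.33 and 1.00 for F13a1 (2 against 2 mice in each).

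The effect of Ephb4 deletion after bleomycin was compared next, against the same control bleomycin mice. Again 0 of 8 genes, and 0% of all genes, passed in edgeR. F10 alone had an unadjusted p under 0.05 (1 of 8), against 20.2% of all genes in either direction. Plat alone had separate groups (1 of 8), against 23.1% of all genes in either direction, so that neither count exceeded the background. The median log2 fold change was -0.57 over the members and 0.01 over all genes. DESeq2, which called 3.84% of all genes, and limma voom called 0 members. With sample quality weights limma voom called Plau, Plaur, Plat, Tfpi and F13a1, 5 of 8, and 44.4% of all genes. Within the 2 blocks of columns, Plat differed by -4.35 and -2.53 and F10 by 1.81 and 1.98 on the log2 CPM scale. Fibroblast scores (mean log2 CPM of 14 markers) were 7.54 to 8.55 in control and 0.47 to 6.54 in CKO mice, and with this score as a covariate the log2 fold change of Plat was 0.01; the part of these cell markers in the differences was not tested further.

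Between Ephb4 CKO and control mice after PBS, and between bleomycin and PBS in CKO mice, 0 of 8 genes had even an unadjusted p under 0.05. After PBS 1.43% of all genes were higher and 0.563% lower by that measure, and 0.248% and 0.716% for bleomycin in CKO mice; 0% passed the adjusted threshold in either. DESeq2 and limma voom called 0 members in both. The largest log2 fold changes were those of Plat after PBS (-2.41, SE 1.22) and of F13a1 for bleomycin in CKO mice (1.09, SE 0.81). The interaction, which tests whether the bleomycin effect differed between CKO and control mice, passed for 0 of 8 genes and 0% of all genes, and no member had an unadjusted p under 0.05 where 1.89% of genes were higher and 1.57% lower. It ranged from -2.04 (SE 1.56) for Serpine2 to 1.48 (SE 0.96) for F10 on the log2 scale, with a smallest adjusted p of 0.92 (edgeR). Leaving out 1 mouse at a time, it ranged from -3.27 (without control PBS mouse 3) to -0.97 (without CKO PBS mouse 1) for Serpine2. The bleomycin effects above were therefore not shown to differ between CKO and control mice. All of these comparisons share groups of mice.

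**Figure D3:**
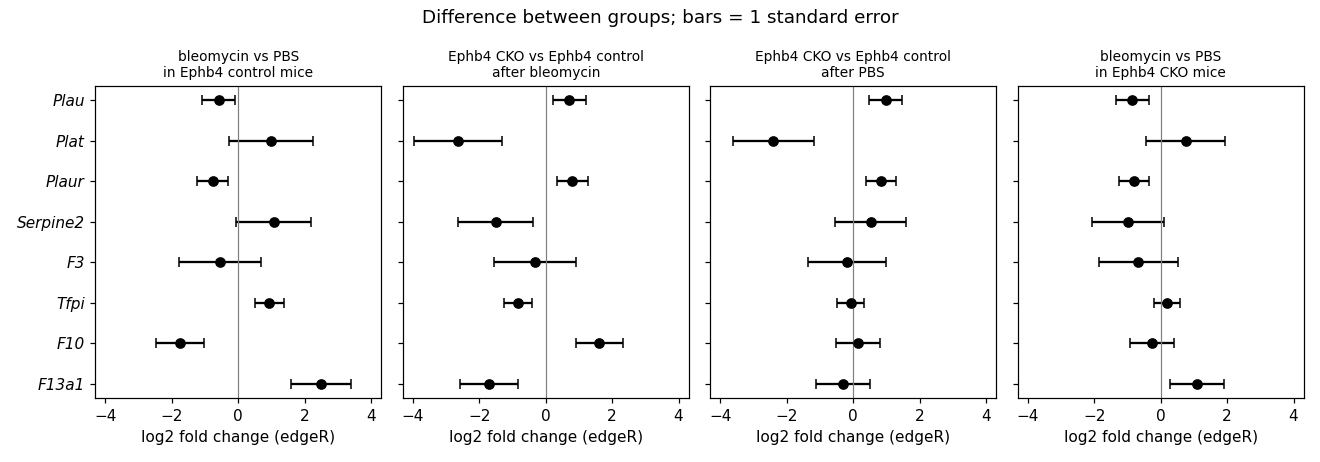
log2 fold change (edgeR) of the 8 genes in 4 comparisons, with bars of 1 standard error. F13a1 (2.498) and F10 (-1.75) lie farthest from 0 for bleomycin in control mice, and Plat (-2.64) after bleomycin between CKO and control mice; none passed the adjusted threshold.

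Across the 17 libraries several members, but not all, fell into opposing patterns that ran with or against marker genes of cell types. Plat followed the fibroblast score (Pearson r = 0.90, Spearman rho = 0.93, permutation p = 1e-05 for both, the smallest that 100000 resamples can give; Benjamini-Hochberg adjusted over 44 relations, 0.00022 for r and 0.00044 for rho). The relation held without the 2 libraries farthest from the median score (r = 0.88), in deviations from group means (r = 0.88) and in both blocks of columns (r = 0.83 and 0.96). Plaur ran against that score (r = -0.74, rho = -0.85, permutation p = 0.00022 and 6e-05, adjusted 0.00323 and 0.000528; r = -0.73 without 2 libraries, -0.61 in deviations, and -0.89 and -0.68 within blocks). F10 followed the macrophage score (r = 0.93, rho = 0.79, permutation p = 1e-05 and 0.00025, adjusted 0.00022 and 0.00138; r = 0.85 without 2 libraries, 0.88 in deviations, and 0.80 and 0.96 within blocks).
Of the 28 pairs of members, 5 had an adjusted permutation p under 0.05 for r. The permutations, here and above, shuffled all 17 libraries without regard to group, so differences between groups enter these p values. No p was computed for deviations from group means. Plat and Serpine2 had the largest r (r = 0.75, rho = 0.60, permutation p = 0.00076 and 0.0128, adjusted 0.00836 and 0.0376; r = 0.53 without 2 libraries, 0.79 in deviations, and 0.87 and 0.69 within blocks). This relation was weak in 1 of the 2 number series: r was 0.94 in series 11 (n = 8) and 0.21 in series 12 (n = 9). Plau and Plaur went together (r = 0.69, rho = 0.87, permutation p = 0.00302 and 3e-05, adjusted 0.0181 and 0.00044; r = 0.81 without 2 libraries, 0.50 in deviations, and 0.71 and 0.82 within blocks). Plat ran against Plaur (r = -0.68, rho = -0.87, permutation p = 0.00216 and 3e-05, adjusted 0.0158 and 0.00044; r = -0.66 without 2 libraries, -0.52 in deviations, and -0.90 and -0.56 within blocks). Plat also ran against Plau (r = -0.63, rho = -0.80, permutation p = 0.00598 and 0.00023, adjusted 0.0263 and 0.00138; r = -0.68 without 2 libraries, -0.50 in deviations, and -0.62 and -0.70 within blocks). Plat and F10 passed for r but not for rho (r = -0.59, rho = -0.52, permutation p = 0.0112 and 0.0344, adjusted 0.0377 and 0.0688; r = -0.51 without 2 libraries, -0.35 in deviations, and -0.61 and -0.81 within blocks). In all, 13 of the 44 relations had a Benjamini-Hochberg adjusted permutation p under 0.05 for r. With the fibroblast score they included Plau (r = -0.60, adjusted 0.0362), F10 (-0.61, 0.0235), Tfpi (0.64, 0.0306) and Serpine2 (0.67, 0.0181). For Tfpi rho did not pass (adjusted 0.0572). Serpine2 had r = 0.97 in number series 11 and 0.048 in series 12. Plat ran against the macrophage score (r = -0.69, adjusted 0.0088). F3 passed with neither score for r (adjusted 0.244 and 0.0896), and for rho only with the macrophage score (-0.68, adjusted 0.0138). For F13a1, listed in no marker list, neither score passed (r = 0.46 with fibroblast and 0.13 with macrophage markers, permutation p = 0.065 and 0.61, adjusted 0.11 and 0.63). In deviations from group means its r was 0.67 with the macrophage score and 0.72 with F10, against 0.20 with the fibroblast score. Over the libraries as they stand, its r with F10 was only 0.19 (permutation p = 0.45, adjusted 0.49). It was -0.081 without 2 libraries, and -0.63 and 0.25 within blocks. The macrophage relation differed in sign between the blocks (r = -0.58 and 0.29) and was -0.37 without 2 libraries.

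**Figure D4:**
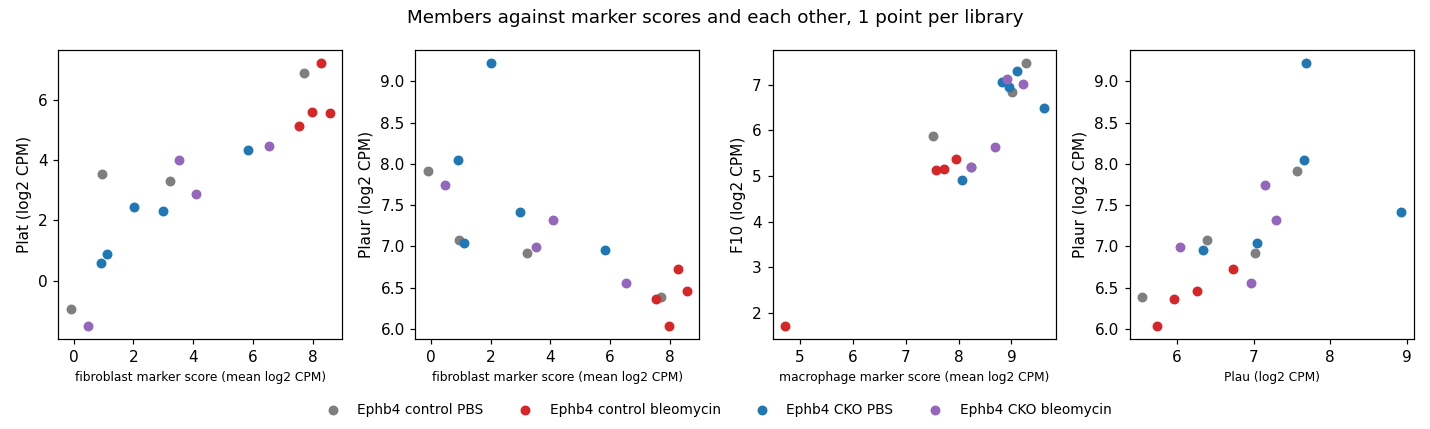
Plat and Plaur against the fibroblast score, F10 against the macrophage score and Plaur against Plau, in log2 CPM, with 1 point per library coloured by group. Plat increases with the fibroblast score (r = 0.90), Plaur decreases with it (r = -0.74), and F10 increases with the macrophage score (r = 0.93), with control bleomycin mouse 1 alone at the lower left.

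The genes whose levels were most like each member over the 17 libraries, by Pearson r of log2 CPM, are given as a description. For Plat they were Sgtb (0.96), Pde10a (0.95) and Dlg4 (0.95), and for Serpine2 Ptprn (0.93), Adamts7 (0.93) and Gnai1 (0.92). Plaur was most like Ccl3 (0.95), a chemokine, followed by Rmdn3 (0.93) and Mapkapk2 (0.93), and Plau was most like Rnf25 (0.91), Cers2 (0.91) and Tor2a (0.90). F3 was nearest to Cgnl1 (0.95), Ankrd1 (0.95) and Plscr2 (0.95). Fstl1 (0.90), Pgrmc2 (0.90) and Desi2 (0.87) came first for Tfpi. F10 had Pycard (0.97), the inflammasome adaptor, Lcp2 (0.96), an adaptor of blood cells, and Aldh3b1 (0.96). F13a1 had no close match, with Nxpe5 (0.77), Zfp672 (0.73) and Plod1 (0.71) first.

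The rest of the pathway was read from lists of 49 other genes (17 of the plasminogen system, 18 coagulation factors and cofactors, 10 inhibitors and 4 thrombin receptors), of which 25 passed the filter. Plasminogen itself (Plg) and the fibrinogen alpha chain (Fga) were at 0 in every library, and prothrombin (F2) did not exceed 0.0720 CPM. F7, the partner of tissue factor, was present at 6.29 to 384.8 CPM. None of the 25 passed the adjusted threshold in any comparison (edgeR). At an unadjusted p under 0.05, 3 were higher and 0 lower for bleomycin in control mice, 1 and 4 for CKO against control after bleomycin, 2 and 0 after PBS, 1 and 2 for bleomycin in CKO mice, and 0 and 1 for the interaction. Over all genes the shares were 6.28% higher and 7.98% lower in the first of these comparisons and 20.2% in either direction in the second, where 5 of 25 was near that background. After PBS the shares were 1.43% higher and 0.563% lower, and for bleomycin in CKO mice 0.248% and 0.716%. For the interaction they were 1.89% and 1.57%. Whether the counts of the listed genes exceed these shares was not tested.
For bleomycin in control mice, Gas6, a vitamin K-dependent ligand of receptor tyrosine kinases, was 5.93 ± 2.88 CPM after PBS and 47.7 ± 29.8 CPM after bleomycin (SD, n = 4 each; log2 fold change 3.01, SE 0.85, edgeR adjusted p = 0.27). Thbd, thrombomodulin, was 38.1 ± 19.6 and 93.4 ± 22.2 CPM (log2 fold change 1.29, SE 0.51, edgeR adjusted p = 0.32). Both had separate groups, as 5.72% of all genes did in the higher direction, and DESeq2 gave Gas6 an adjusted p of 0.017. Ggcx, the carboxylase that the vitamin K-dependent factors need, differed by 0.92 (SE 0.39) in the same comparison. The mean fibroblast score was 2.96 in control PBS and 8.08 in control bleomycin mice. With it as a covariate the log2 fold change was 1.13 for Gas6, 0.23 for Thbd and 0.087 for Ggcx. The score was -0.076 to 7.71 in the PBS and 7.54 to 8.55 in the bleomycin mice, so it largely ran with treatment. The part of the fibroblast markers in these differences was not tested.
For CKO against control after bleomycin the smallest p values were those of Lman1 (-0.91, SE 0.23, edgeR adjusted p = 0.19), Ggcx (-1.19, SE 0.39, adjusted p = 0.21) and Plgrkt, a plasminogen receptor (0.76, SE 0.31, adjusted p = 0.22), on the log2 scale. All 3 had separate groups, as 23.1% of all genes did in either direction. DESeq2 gave Lman1 an adjusted p of 0.012. With the fibroblast score as a covariate Lman1 was -0.68, Ggcx -0.38 and Plgrkt 0.36. That score did not overlap between these groups, and the part of its markers in the differences was not tested. Lman1, the cargo receptor for factors V and VIII in the secretory pathway, was 179.1 ± 26.9 CPM in control and 95.4 ± 8.68 CPM in CKO mice (SD, n = 4 each). Serpinb2, a serpin that inhibits the activators, reached 2805 CPM in CKO PBS mouse 1 and was at most 113.3 CPM in the other groups, so its log2 fold change of 5.44 (SE 2.06) after PBS was 0.50 without that mouse. Procr, the endothelial protein C receptor, was likewise 2.42 (SE 0.90) with and 0.45 without the same mouse, which also had the highest Plaur and Serpine2. Lman1 came next after PBS, at -0.45 (SE 0.21, edgeR adjusted p = 1.00), and was -0.19 without control PBS mouse 3. For bleomycin in CKO mice the log2 fold changes were 2.11 (SE 0.76) for Gas6, -2.27 (SE 0.90) for Procr and -4.89 (SE 2.01) for Serpinb2, each with an adjusted p of 1 (edgeR). Without CKO PBS mouse 1, Procr was -0.30 and Serpinb2 0.030. Gas6 was 0.82 without CKO bleomycin mouse 2 and -0.64 without the 3 libraries whose sex-linked genes went against the label. Serpinb2 (-6.18, SE 2.62), Mcfd2, the partner of Lman1 (-0.73, SE 0.41), and Plgrkt (0.76, SE 0.43) had the smallest p for the interaction, with an adjusted p of 0.92 each (edgeR), and Serpinb2 was -1.29 there without CKO PBS mouse 1.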

How the data were processed

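Total RNA of cultures labelled as lung fibroblasts was sequenced as strand-specific 75 bp pairs. The deposited counts were made by the authors with Cutadapt, HISAT2 2.1.0 (GRCm38) and StringTie, whose script derives whole numbers from coverage; no normalization was applied before deposit. Groups were taken from the labels. The counts were tested with edgeR 4.0.16 (R 4.3.3): genes above 10 CPM in at least 2 libraries, then TMM, 1 mean per group over 17 libraries, quasi-likelihood test, Benjamini-Hochberg adjustment over 10481 genes, threshold 0.05. Each standard error is the fold change divided by the square root of F. log2 CPM used a prior count of 2. The authors' batch of each library is not given in the sources used here, so no batch term was fitted; the 2 alphabetical blocks of columns served as a stand-in. Relations used 2-sided permutation tests (100000 resamples), which shuffled all 17 libraries without regard to group. Positions and exon lengths come from GENCODE M21. The procedure was also run on simulated counts, and the share of planted differences that it recovers is not given here.

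All 8 members, Ephb4, the 3 pathway genes with the smallest p per comparison and the 3 genes most like each member are named by rule; F7, Plg, Fga and F2 were chosen after their values were seen. The members and gene lists were chosen with earlier results of these data known. DESeq2 1.42.0, limma 3.58.1, other filters and scalings, covariates and each mouse left out were the alternatives.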

Additional observations from a re-analysis of the deposited data

Results flagged for a closer look

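F10 in Ephb4 control bleomycin mouse 1 was 3.26 CPM, far below the other 3 mice of its group, the nearest of which had 35.3 CPM. On the log2 CPM scale the gap was 0.937 of the group's range, above Dixon's critical value of 0.829. The mean of the other 3 mice was 37.5 CPM. It was the only one found among 32 groups tested, where chance gives about 1 in 20, so a single one is not above that rate. The same library had the lowest macrophage score (4.73) and the lowest F13a1 (3.43 CPM); the part of the macrophage markers in this value was not tested.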

How the results depend on the processing

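The 8 members were refitted under 15 settings and with each mouse left out; of the alternative values of a member's log2 fold change, 1187 kept their direction and side of the threshold, 79 were reversed and 6 passed it. The number of members called stayed at 0 except for 1 (F13a1, bleomycin in control mice) by DESeq2 with the blocks of columns as a covariate and 5 (CKO against control after bleomycin) by limma voom with sample quality weights. The causes were not tested. The values below are log2 fold changes. With the fibroblast score as a covariate, bleomycin in control mice gave Plau 0.20, Plat -1.37, Plaur 0.26 and Serpine2 -0.93; CKO against control gave Plat 0.0087, Plaur -0.072 and Serpine2 0.73 after bleomycin and Tfpi 0.066 after PBS; and bleomycin in CKO mice gave Plat -0.034. With the macrophage score, Plat was -0.049 for bleomycin in control mice, F3 2.06, F10 -0.078 and Plgrkt -0.0075 for CKO against control after bleomycin, and F10 -0.25 after PBS. The number series of the mice was also used as a covariate, although control bleomycin mice were all of series 12. Serpine2 was then -0.16 for bleomycin in control mice and -0.11 for CKO against control after PBS. In the same fit F3 was 1.28 for CKO against control after bleomycin and 0.33 for bleomycin in CKO mice. limma voom gave F3 0.63 and 0.088 for bleomycin in control and CKO mice. With quality weights Serpine2 was 0.28 and -0.37 for CKO against control after bleomycin and PBS, 0.69 for bleomycin in CKO mice and 0.65 for the interaction, and F3 was 0.13 for bleomycin in CKO mice. Without the 3 libraries that go against their sex label, bleomycin in CKO mice gave Tfpi -0.28, F10 0.30 and Gas6 -0.64. Leaving out 1 mouse at a time, F3 ranged from -0.96 to 1.01 for bleomycin in control mice, -0.88 to 0.051 for CKO against control after bleomycin, -2.29 to 1.37 after PBS and -1.24 to 1.41 for bleomycin in CKO mice. For CKO against control after PBS, Serpine2 ranged from -0.56 to 1.73, Tfpi from -0.46 to 0.35, F10 from -0.13 to 0.61 and F13a1 from -0.62 to 0.34. For bleomycin in CKO mice, Serpine2 ranged from -1.41 to 0.10, Tfpi from -0.19 to 0.56 and Serpinb2 from -5.54 to 0.030. The interaction of genotype and bleomycin, near 0 for several members, reversed most often. For F3 it was 0.33 by DESeq2 with the blocks of columns, 0.65 by limma voom with quality weights, and 0.14, 1.87, 0.34 and 2.14 in edgeR with sex, the number series, the blocks of columns and the macrophage score as covariates. For Plaur it was 0.088 by DESeq2 with the blocks of columns, 0.12 and 0.28 by limma voom without and with quality weights, 0.16 and 0.11 with the number series and the blocks of columns, and 0.14 without the 3 libraries that go against their sex label, which gave F13a1 0.092. Plau was 0.36 with quality weights, and Plat 1.34 and 0.33 with the fibroblast and the macrophage score. Leaving out 1 mouse at a time, the interaction ranged from -0.63 to 0.25 for Plau, -2.52 to 0.74 for Plat, -0.38 to 0.54 for Plaur and -1.69 to 1.97 for F3. No paired analysis was possible because the replicate numbers follow the order of the samples and mark no shared animal, litter or day.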
